A study of Homo sapiens with 2 samples.

Results

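The miR-148 family (hsa-miR-148a, hsa-miR-148b and hsa-miR-152) and the products of the miR-193b and miR-365 genes (hsa-miR-193b, hsa-miR-193b* and hsa-miR-365) were compared between control and dioxin-exposed liver cancer cells. The members were taken by their probe names, and all 6 were found among 718 probe names on the array. Both groups were picked because miR-148b and miR-193b had lower values on the array of exposed cells, so the differences of the members between the arrays are a description of values that led to their choice, and no test is made of them. The cells were HepG2, a human line grown from a hepatocellular carcinoma. A single array carried RNA of control cells, and a single array carried RNA of cells labelled as exposed for 48 h to 10 nM TCDD, a dioxin that binds the aryl hydrocarbon receptor. The labels give no time and no vehicle for the control. The array of the exposed cells is called the TCDD array below, and each direction rests on its label. The samples share the cell line, the medium and the Cy3 dye. Nothing in the labels says that the cultures were repeated, so there is no replicate spread and no p-value anywhere below.

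MicroRNAs are short RNAs that guide Argonaute proteins to messenger RNAs, mostly through the seed, the stretch from base 2 to base 8 of the mature strand. Each is cut from a hairpin with a pair of arms: the arm that is usually retained keeps the plain name, and the star marks the opposite arm. miR-148a, miR-148b and miR-152 are known for repressing the DNA methyltransferases DNMT1 and DNMT3B and the immune molecule HLA-G, and miR-148a is abundant in normal liver, where it also represses the LDL receptor. miR-193b is known for repressing cyclin D1, the oestrogen receptor and the plasminogen activator urokinase. miR-193b and miR-365 come from neighbouring hairpins that were described together in mouse brown fat differentiation.

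The mature sequences of the members show which probes had near-identical targets. They are given 5′ to 3′ from RefSeq (GRCh38.p14) with the seed in capitals. All 6 member names were paired with a RefSeq mature strand, plain names with the 3p strand and miR-193b* with the 5p strand of its hairpin.
miR-148a: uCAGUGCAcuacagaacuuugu
miR-148b: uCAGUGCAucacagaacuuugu
miR-152: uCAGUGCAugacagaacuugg
miR-193b: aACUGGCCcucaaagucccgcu
miR-193a-3p: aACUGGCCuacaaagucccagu
miR-193b*: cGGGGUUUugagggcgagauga
miR-365: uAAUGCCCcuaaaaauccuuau

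The sequences fell into 4 seeds. The seed CAGUGCA was carried by 3 names of the RefSeq table, the 3 members of the miR-148 family, and pairs with UGCACUG in a messenger RNA. The seed ACUGGCC was carried by 2 names, miR-193b and its paralog miR-193a-3p, which is shown for that reason and is not a member. Counting from 1 at the 5′ end, miR-148a differed from miR-148b at 2 of 22 bases, U9C and C10U, where the first letter is the base of miR-148b. miR-152 differed from miR-148b at 2 of the 21 bases they can be compared over, C10G and U20G. miR-193a-3p differed from miR-193b at 4 of 22 bases, C9U, U10A, G20A and C21G. Between such close sequences a probe can bind its neighbour's RNA, and how well these probes told them apart was not tested.

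The members come from separate places in the genome, with 1 shared locus (coordinates of GRCh38.p14). The miR-148b hairpin lies on the plus strand at chr12:54337216-54337314, within the span of COPZ1, and the miR-152 hairpin on the minus strand at chr17:48037161-48037247, within the span of COPZ2. COPZ1 and COPZ2 are paralogs that encode zeta subunits of the COPI vesicle coat. The miR-148a hairpin lies on the minus strand at chr7:25949919-25949986, within the span of LOC105375199. The miR-193b hairpin at chr16:14303967-14304049 and the miR-365a hairpin at chr16:14309285-14309371 are both on the plus strand within MIR193BHG, a long noncoding host gene, with 5235 bases between them. A second hairpin, miR-365b at chr17:31575411-31575521, lies 15327 bases beyond the miR-193a hairpin and gives the same 22 bases of mature miR-365, so the probe named miR-365 cannot tell the loci apart. Whether a hairpin lies in an exon or an intron of its spanning gene was not examined here.

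Values are the deposited log2 fluorescence. The smallest deposited value, 5.64 (a fluorescence of 50), was shared by 343 names on the control array and 257 on the other, so a floor was set at 6.64 (a fluorescence of 100). A name above the floor on at least 1 array counts as detected. Of 718 names 242 were detected, and 4 of the 6 members were among them. Since the brightness of a probe depends on its sequence, values are compared between arrays for the same probe, and not between probes. As a measure of the scatter between single probes, the robust SD of the differences over the 222 names above the floor on both arrays was 0.28 on the log2 scale. It is not a replicate error.

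Within the miR-148 family, miR-148b had the larger difference and miR-152 a smaller one in the same direction. miR-148b had a log2 fluorescence of 8.53 on the control array and 7.62 on the TCDD array. These are fluorescence values of 370 and 197, so the signal on the second array was 53.3% of that in control, a difference of -0.91 on the log2 scale or 1.87-fold. Adding the floor to both arrays, which shrinks the folds of dim probes by construction, made the difference -0.66.

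miR-152 was at 8.48 (control) and 8.05 (TCDD array), a fluorescence of 357 and 265. Its signal on the second array was 74.2% of that in control, a difference of -0.43 or 1.35-fold. The difference of miR-148b minus that of miR-152 was -0.48, and miR-152 shares its seed and 19 of 21 bases. miR-148b was chosen for its lower value on the TCDD array, so nothing is read from this distance. miR-148a, the member best known from normal liver, was under the floor on both arrays, at 6.43 (control) and 6.52 (TCDD array). No fold is given for it. The opposite arms miR-148a* (6.02 and 6.49) and miR-148b* (5.95 and 5.93) were under the floor as well, so the other arm of the miR-148b hairpin gives no second reading of its difference.

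**Figure D1:**
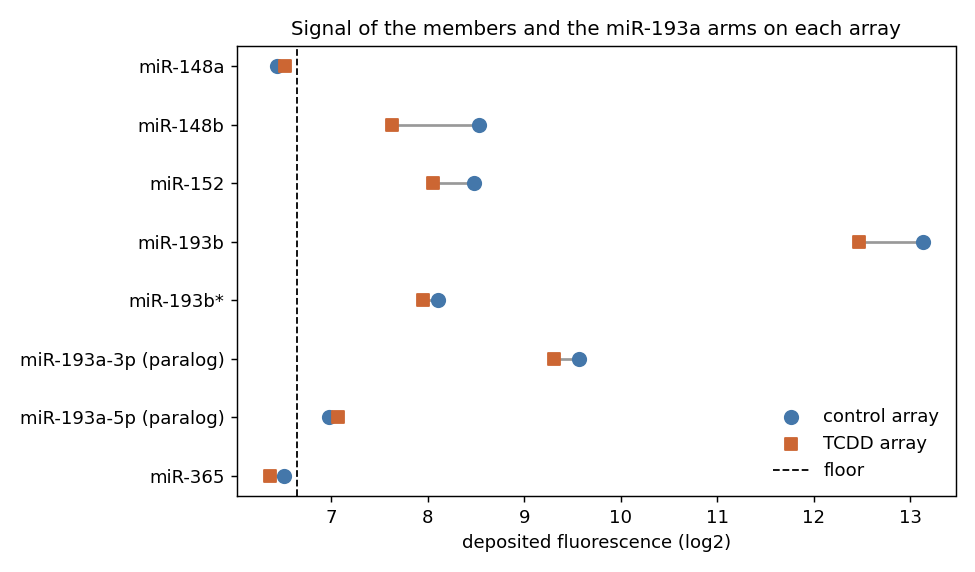
Deposited log2 fluorescence of the 6 members and of the miR-193a arms, with control as circles, the TCDD array as squares and the floor of 6.64 as a dashed line; each point is a single array, without error bars. miR-148b (8.53 and 7.62) and miR-193b (13.13 and 12.47) are the members whose points lie furthest apart, while miR-148a and miR-365 sit left of the floor on both arrays.

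At the miR-193b locus the arm with the plain name differed more than its star arm. miR-193b was at 13.13 (control) and 12.47 (TCDD array), a fluorescence of 8965 and 5680. The second signal was 63.4% of the first, a difference of -0.66 or 1.58-fold. Both values lay far above the floor and below the highest value of either array (15.93 and 16.02). miR-193b*, cut from the other arm of the same hairpin, was at 8.10 (control) and 7.95 (TCDD array), 90.0% of the control signal and a difference of -0.15.

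The gap between the arms of the miR-193b hairpin was -0.51, the plain arm minus the star arm. The size of this gap was taken across 29 hairpins whose plain and star names were both above the floor on both arrays. Its median was 0.21, and the gap of miR-193b was number 5 in order of size. miR-193b was chosen for its lower value on the TCDD array, which enters its gap, so this place is a description only. The largest gap, chosen after the values were seen, was that of miR-191 at -1.08. The guide lay below the star in 16 of the 29, so a gap in this direction was common. The star probe of miR-193b was dim, at fluorescence values of 275 and 247, and the part of its level in the gap was not tested.

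miR-365, whose miR-365a hairpin lies beside that of miR-193b, was under the floor on both arrays, at 6.51 (control) and 6.36 (TCDD array). The shared locus therefore has readings from a single hairpin. No fold is given for miR-365, which is known for repressing interleukin 6 and the lung factor NKX2-1.

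All 4 detected members had differences below 0, with a median of -0.54 and a range from -0.91 to -0.15. Over all 242 detected names 50.4% lay below 0 and the median was -0.003. Of the members, 2 (miR-148b and miR-193b) had at least 1.5-fold less signal on the TCDD array, as did 10 of the 242 detected names (4.13%), and none had 1.5-fold more, as did 8 names (3.31%). At 2-fold no member was called lower, against 6 names (2.48%), and none higher, against 1 name (0.413%). miR-148b and miR-193b were chosen for their low values, which enter these counts, and the other members came in by name. Nothing is therefore read from the counts. In order of difference from the lowest, miR-148b was number 8, miR-193b number 9, miR-152 number 18 and miR-193b* number 73 of the 242. The names next to miR-148b and miR-193b in that order were miR-21*, the star arm of miR-21, at -0.92, and miR-146a, a brake on inflammatory signalling, at -0.63.

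**Figure D2:**
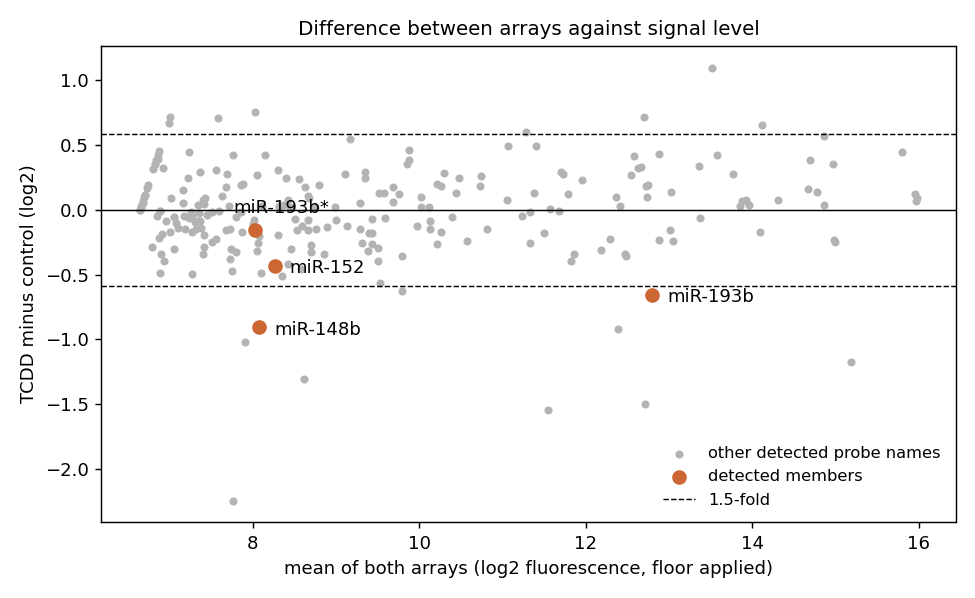
Log2 difference between arrays (TCDD minus control, vertical) against the mean log2 fluorescence of both arrays (horizontal) for the 242 detected names in grey and the 4 detected members in orange; dashed lines mark 1.5-fold. miR-148b (-0.91) and miR-193b (-0.66) lie under the lower line, the first among the dim and the second among the bright names, and miR-152 (-0.43) and miR-193b* (-0.15) lie above it.

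Relatives of the miR-193b hairpin differed less than miR-193b, which was chosen for its lower value on the TCDD array. That choice favours a larger difference for miR-193b, so nothing is read from its distance to the relatives. miR-193a-3p, which shares the seed of miR-193b, was at 9.57 (control) and 9.30 (TCDD array), a difference of -0.26. The seed partners lay 0.40 log2 units apart (-0.40, miR-193b minus miR-193a-3p). miR-193a-5p, from the other arm of the miR-193a hairpin, was near the floor at 6.97 and 7.07, a difference of 0.09. Of 6 listed opposite arms and paralogs 4 were on the array under the listed names, 2 were detected (the miR-193a arms), and neither was 1.5-fold apart. The 3p arms of both miR-193 hairpins lay below 0, and the 5p arms lay on either side of it. miR-193b was chosen for its low value. miR-193a-3p, miR-193b* and miR-193a-5p each differed by less than 0.28, the robust SD between probes. No arm pattern is read from these signs.

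The seed AGUGCAA of miR-130b, miR-301a, miR-301b and miR-454-3p shares a run of 6 bases, AGUGCA, with the miR-148 seed, shifted by a base. The list of these miRNAs also holds miR-130a, by its name. Its 4 detected members had differences above 0, under each scaling tried as well. Of all 242 detected names 120 lay above 0, and 8 (3.31%) were at least 1.5-fold higher. miR-301b was at 7.22 (control) and 7.93 (TCDD array), a difference of 0.71, and was the only member at least 1.5-fold higher. miR-301a differed by 0.28 (8.96 and 9.24), miR-130a by 0.25 (10.35 and 10.59) and miR-130b by 0.10 (12.32 and 12.42), and miR-454-3p was under the floor at 6.37 and 6.31. The 4 detected members had a median of 0.26 against -0.003 over all detected names. With the stricter floor of 200, which is above the control value of miR-301b, its difference is a bound of 0.29, and with the floor added it was 0.47, both under 1.5-fold.

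The miR-29 family, which shares described targets with the miR-148 family, was mixed in direction. Of the miR-29 family, also known for repressing DNA methyltransferases, miR-29b differed by -0.51 (control 8.60, TCDD array 8.09), miR-29c by -0.25 (7.64 and 7.39) and miR-29a by 0.33 (12.50 and 12.83), with none 1.5-fold apart and a median of -0.25. The list of miRNAs linked to drug and xenobiotic metabolism had 6 detected names of 9, 5 below 0 and none 1.5-fold apart, with a median of -0.23. Over all 242 detected names 50.4% lay below 0, with a median of -0.003. At 1.5-fold 4.13% were lower and 3.31% higher. With so few listed names and 1 array per group, a shift of the list was not tested. miR-27b, described as repressing the dioxin-inducible enzyme CYP1B1, differed by -0.24 (10.70 and 10.46), miR-27a by -0.26 (10.34 and 10.08), miR-21 by -0.25 (15.11 and 14.86), miR-132 by -0.22 (6.97 and 6.76) and miR-24 by -0.17 (14.18 and 14.01). miR-34a, a target of p53, was the member above 0, at 0.39 (14.50 and 14.89). The remaining names, miR-378, miR-892a and miR-212, were under the floor.

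**Figure D3:**
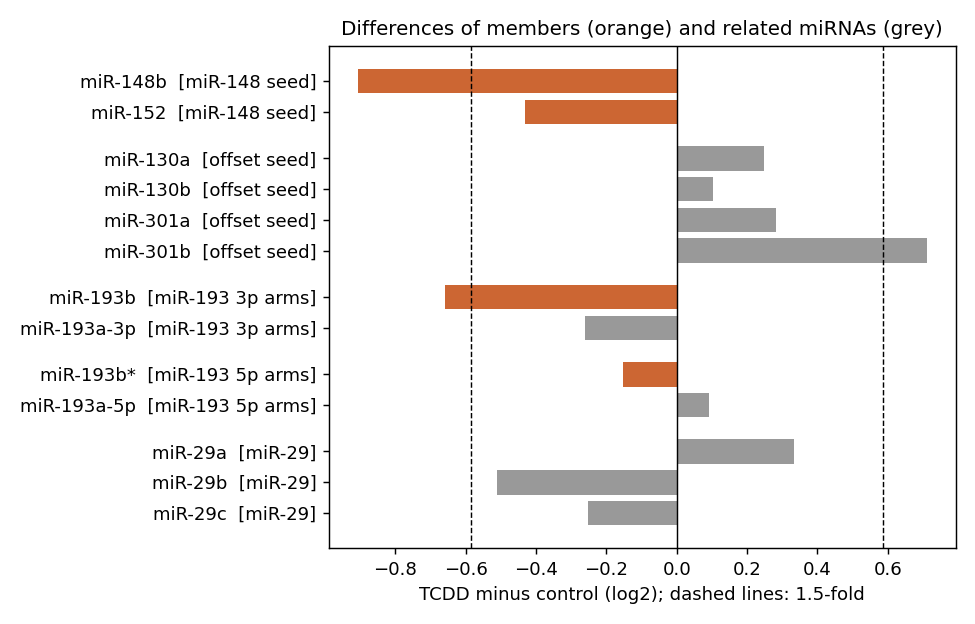
Log2 difference between arrays (TCDD minus control) for the detected members in orange and related detected miRNAs in grey, grouped by seed, arm or family; each bar is a single pair of arrays without an error, and dashed lines mark 1.5-fold. The miR-148 bars (-0.91 and -0.43) point left and the 4 bars of the offset-seed list (0.10 to 0.71) point right, while the miR-29 bars point both ways. miR-148b and miR-193b were chosen for their lower values on the TCDD array.

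Among miRNAs described as growth suppressors in liver cancer, a role in which miR-148a, miR-152 and miR-193b have also been described, 9 of 12 names on the array were detected, 4 below 0 and 5 above, with a median of 0.02 and none 1.5-fold apart. Of all 242 detected names 4.13% were at least 1.5-fold lower and 3.31% higher. The lowest were miR-29b at -0.51 and let-7a at -0.39 (control 12.02, TCDD array 11.63). The highest were miR-34a at 0.39 and miR-26a at 0.36 (14.80 and 15.15). This list therefore had no shared direction, with a median near that of all detected names. miR-29b and miR-34a are also in the lists above, so the lists are not separate readings.

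The cell type was checked against marker miRNAs. The liver miRNA miR-122a was dim, at 7.60 (control) and 7.59 (TCDD array), under the stricter floor of 7.64 on both. The values of miR-192 were 13.88 and 13.96. miR-194 was at 12.34 and 13.06, a difference of 0.72, and was the liver marker at least 1.5-fold higher on the TCDD array (0.63 to 0.89 over the settings). miR-215 was at 6.93 in control and under the floor on the other array. None of the 6 blood and 4 muscle names was above the floor. Of 4 neural names 2 were detected, miR-138 at 8.89 (control) and 9.44 (TCDD array) and miR-128a at 8.70 and 8.62. Their differences were 0.55 and -0.08, and miR-124a and miR-9 were under the floor on both arrays. The fibroblast and smooth muscle list had 3 names on the array, and 2 of them lay well above the floor. The remaining name, miR-214, was at the smallest deposited value, 5.64, on both arrays. On the control array miR-143 read 10.17, against 10.36 on the TCDD array, a difference of 0.18. For miR-145 the values were 12.39 and 12.42, a difference of 0.03. Each of these differences was within 1.5-fold as reported. miR-138 passed 1.5-fold after quantile normalization (0.68) and with the lowess trend removed (0.59). Brightness is not compared between probes, so the marker levels do not settle the cell type. The source of the neural, fibroblast and smooth muscle signals was not tested. The part of the marker miRNAs in the member differences was not tested either.

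The aryl hydrocarbon receptor binds DNA at a core motif spelled GCGTG. In the RefSeq windows from 250 bases before to 50 after the annotated gene start, searched on both strands, COPZ2 held 1 match and COPZ1, MIR193BHG, MIR365BHG and LOC105375199 held 0. The motif occurs in 12832 of 35116 such windows (36.5%). The genes were taken because their span covers a hairpin. Whether transcripts that hold the hairpins start in these windows was not examined. A match is a description of the letters, and the absence of a match in these windows says nothing about binding elsewhere.

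The member differences were recomputed under 7 other settings of scaling and floor. miR-148b ranged from -0.93 to -0.66, miR-193b from -0.75 to -0.63, miR-152 from -0.46 to -0.26 and miR-193b* from -0.18 to -0.02. miR-148b and miR-193b were at least 1.5-fold lower in each of these settings. The 1.5-fold line was set with the values of miR-148b and miR-193b known to lie between 1.5-fold and 2-fold. Every setting reuses the same 2 arrays, so the ranges describe the processing only and are not a repeat of the result.

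**Figure D4:**
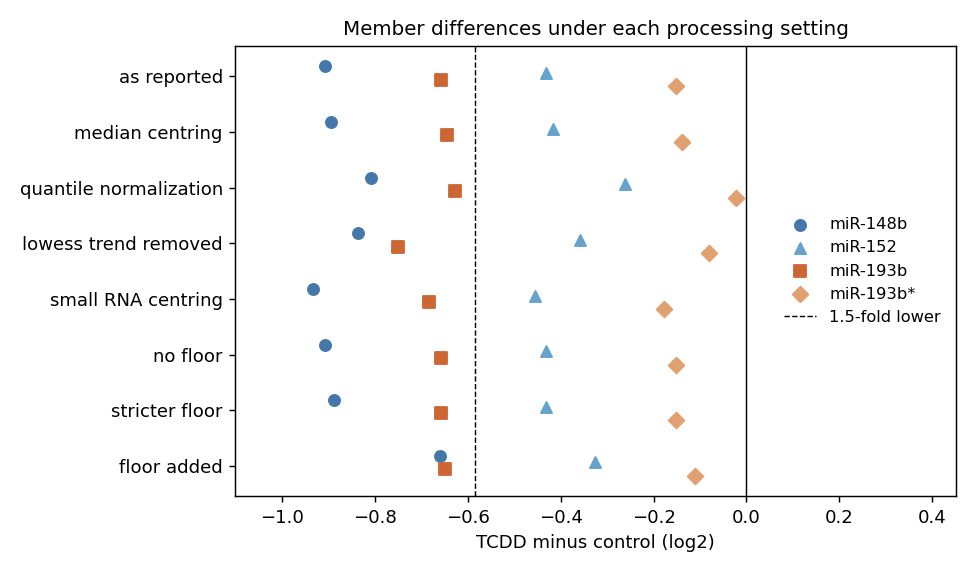
Log2 difference (TCDD minus control, horizontal) of the 4 detected members under the reported setting and 7 alternatives (rows; markers are offset vertically to keep them apart), with the dashed line at 1.5-fold lower. miR-148b (-0.93 to -0.66) and miR-193b (-0.75 to -0.63) stay left of the line in every row, and miR-193b* comes nearest to 0, at -0.02, after quantile normalization.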

How the data were processed

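The deposited table holds log2 fluorescence values of 719 probes on 2 arrays, and the way the authors scaled and clipped these log2 values is not given in the sources used here. Per the labels' protocols, a linker carrying the dye was ligated to total RNA, and per the series' design text the second channel of each array held unrelated samples. Trailing probe numbers were removed from names, and the 2 probes named miR-340 were averaged, which left 718 names. Values under the floor (2 times the smallest fluorescence) were raised to it before the difference, TCDD minus control, was taken. The number of arrays limits the precision, and no test, SE or p-value was computed. The members, lists and thresholds were chosen with earlier results of these data known. Named miRNAs are the 6 members, all names of the arm, paralog and offset-seed lists, the detected names of other lists of at most 6, and otherwise the 2 highest and 2 lowest. A further part of the rule, the 2 miRNAs nearest to each member by signal, is not reported because it sets the brightness of different probes against each other. Others were named after their values were seen. Alternatives were median centring, quantile normalization, a lowess trend removed (fraction 0.5), centring on small nuclear and nucleolar RNAs, no floor, a floor of 4 times the smallest fluorescence, an added floor and a 2-fold threshold. Sequences and gene spans come from RefSeq tables (GRCh38.p14). The calculations used Python 3.11.15, pandas 2.3.3, numpy 2.4.6, statsmodels 0.14.6 and matplotlib 3.10.9, and the code was tested on simulated data.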

Additional observations from a re-analysis of the deposited data

How the results depend on the processing

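All 28 alternative values of the 4 detected members stayed within 0.28, the robust SD between probes, of the reported value and none changed sign. Several settings could hardly move them. With no floor all 4 kept their reported values, and with the stricter floor only miR-148b changed. Median centring and small RNA centring shift every probe by the same amount. Of 190 alternative values of related and marker miRNAs, 8 changed sign, those of let-7g, miR-122a, miR-128a, miR-145 and miR-192, whose reported differences were near 0. At 2-fold the members counted lower were 0 and the detected names counted lower were 6 and higher 1. The names at least 1.5-fold higher numbered 16 with no floor and 5 each with the stricter and the added floor. The liver marker median was 0.39 with the stricter floor, which left 175 detected names. Among list medians 2 of 63 alternative values changed sign. miR-148b under the stricter floor is a bound, -0.89. No paired analysis was possible because there was 1 array in each group, and leaving out a replicate was not possible for the same reason. miR-148a and miR-365 lay under the floor, so depth of signal limits what can be said of them.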
